A study of Mus musculus with 12 samples.

Results

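The mitochondrial carriers of the Slc25 family were followed in 12 arrays of mouse hematopoietic stem cells (HSCs). Members were all genes whose probe sets carry a single symbol of the form Slc25a followed by a number, which gave 50 probe sets of 46 genes among 19935 genes in all. Where a gene had several probe sets, as 3 carriers did, the brightest on average was taken. The HSCs were sorted as lineage- cells with Sca-1+ c-kit+ CD48- CD150+ surfaces, 5000 to 7000 per sample, from mice of 2 to 3 months. The mice had received 100 µL of corn oil under the skin, either alone or with 2 µg of estradiol (E2), and no source used here gives the strain, the tissue sorted or how long treatment lasted. Males and females each had an oil group and an E2 group, which makes 4 groups with 3 arrays from 3 mice in each. No source used here says whether the mice kept their gonads.

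Slc25 proteins sit mostly in the inner mitochondrial membrane and exchange small molecules between the cytosol and the matrix. They move ADP and ATP, phosphate, the acids of the citric acid cycle, amino acids, coenzymes and iron, and each protein is built from repeats of a pair of membrane helices. HSCs are known for leaning on glycolysis at rest and for raising mitochondrial activity when they start to divide or differentiate, which is why the carriers are of interest in these cells.

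Markers of HSCs and of other blood cells were read beside the label. Of 12 listed HSC genes, 10 had a probe set of their own, and all 10 lay above the limit used for testing, the median level of all genes, an intensity of 182.1. So did 10 of 12 genes of granulocytes and monocytes and 6 of 7 megakaryocyte genes. Passing this limit therefore cannot show which cells were present. Genes of granulocytes and monocytes were also detected, with a summed intensity of 9861 to 19231 over 12 genes on the male oil arrays, 9183 to 15618 on the male E2 arrays, 11585 to 24084 on the female oil arrays and 7282 to 16577 on the female E2 arrays. None of 5 mast cell markers lay above the limit. The median intensity per array ran from 143.3 to 159.4, and the number of arrays sets the precision of every value.

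The first question was which carriers HSCs express. Of the 46 carriers, 33 lay above the limit of 182.1, and 13 lay below it. The share above was 71.7%; for all genes together the median divides them evenly by construction. As a second yardstick, 1209 probe sets of olfactory and vomeronasal receptors, which blood cells are not known to use, had a median intensity of 55.5, a 95th percentile of 144.7 and a 99th percentile of 210.3. Above that 95th percentile lay 35 carriers, and above the 99th lay 28. Intensities of different probe sets depend on their probes, so the levels below are set against these limits and not against each other.

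Among the carriers of adenine nucleotides and phosphate, 5 of 8 were above the limit. They were Slc25a4 and Slc25a5, the ADP/ATP translocases that export the cell's ATP, Slc25a3, the phosphate carrier, and Slc25a23 and Slc25a24, which exchange ATP-Mg for phosphate. Slc25a31, the ADP/ATP carrier of the testis, read 37.1 to 69.1 over the arrays, and Slc25a41 read 66.6 to 96.4, both within the range of the receptors. Slc25a25 read 111.6 to 143.8. Among the carriers of pyrimidine nucleotides, coenzymes and vitamins, 7 of 8 were above the limit, and Slc25a33 was not, at 98.5 to 149.2. Of the carriers of di- and tricarboxylates and ketoacids, Slc25a1, which exports citrate, Slc25a10, the dicarboxylate carrier, and Slc25a11, the oxoglutarate carrier, were above. Slc25a21, the oxodicarboxylate carrier, had a mean of 36.2.

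Of 13 carriers of amino acids, glutathione and carnitine, 8 were above the limit. They included both aspartate/glutamate carriers of the malate-aspartate shuttle, Slc25a12 and Slc25a13, the ornithine carrier Slc25a15, the carnitine carrier Slc25a20 and the glutathione carriers Slc25a39 and Slc25a40. The 5 below were Slc25a2, Slc25a18, Slc25a29, Slc25a38 and Slc25a48. Both mitoferrins, Slc25a37 and Slc25a28, which bring iron into the matrix for heme and iron-sulfur clusters, were above. Of the 3 carriers related to uncoupling proteins, Slc25a27 and Slc25a30 were above and Slc25a14 was not. Of 8 carriers with other or unassigned substrates, 6 were above, and Slc25a53 and Slc25a54 were below. The members nearest the limit were Slc25a16, just inside with a mean of 183.6, and Slc25a38, the glycine carrier, just outside with a mean of 166.8. Slc25a38 read 171.2, 214.3 and 161.0 in male oil, 179.8, 157.3 and 134.1 in male E2, 193.4, 90.2 and 179.5 in female oil and 162.8, 133.4 and 224.4 in female E2, so its arrays lay on both sides of the limit in every oil and female group. Inside the limit but under the 99th percentile of the receptors lay 5 carriers, a level that some receptor probe sets also reached.

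**Figure D1:**
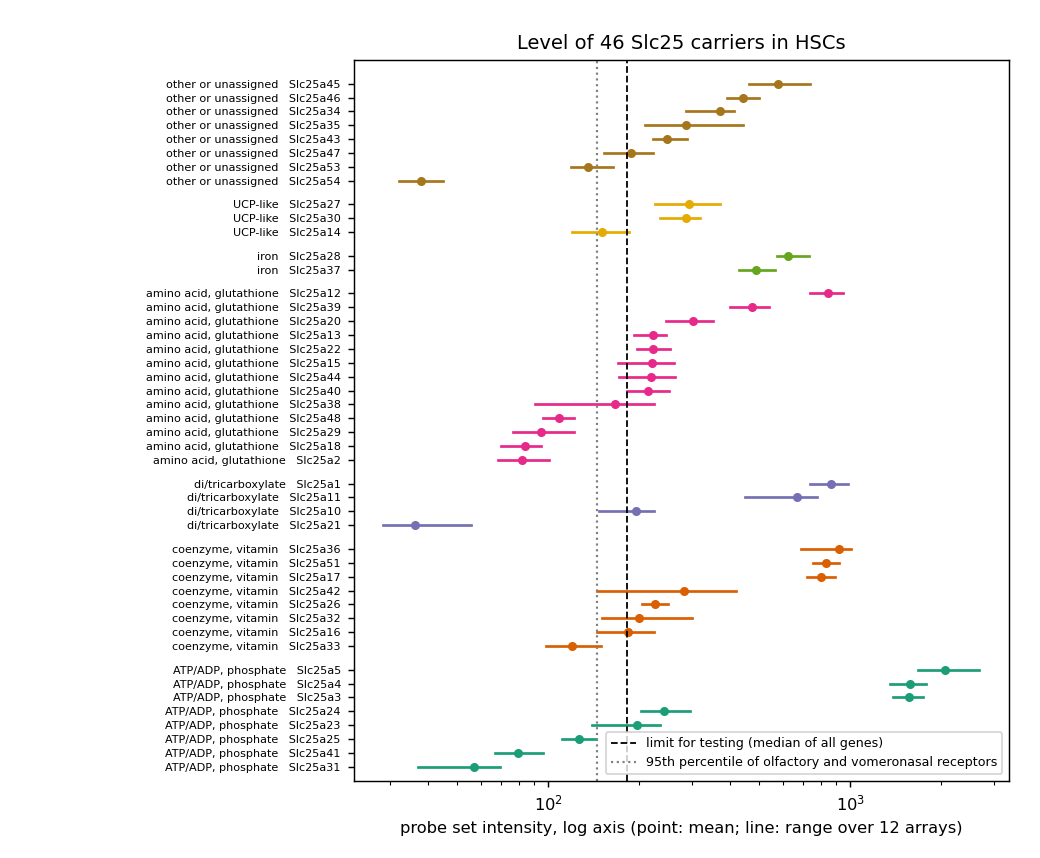
Probe set intensity of the 46 Slc25 carriers, grouped by substrate. Points are means and lines the range over 12 arrays on a log axis; the dashed line marks the limit of 182.1 and the dotted line the receptors' 95th percentile of 144.7. Of the carriers, 33 have a mean to the right of the dashed line.

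The second question was which carriers move with E2. Averaged over the sexes, Slc25a5 rose, and none of the other 32 carriers above the limit passed the test. This was 1 of 33 carriers, beside 8.9% of all 9967 genes called in either direction and 3.12% called higher by limma with Benjamini-Hochberg adjustment over all of them. At an unadjusted p under 0.05 there were 6 carriers, 5 higher and 1 lower, beside 24.6% of all genes, 10.5% higher and 14.1% lower. The share of all genes called fell to 4.83% without female oil replicate 2, 5.33% without male E2 replicate 2 and 5.44% without male oil replicate 2, and was 5.76% to 11.5% without each of the other arrays. The median difference of the 33 carriers was 0.04 on the log2 scale and that of all genes was -0.01. The carriers' median was -0.004 without female E2 replicate 2, 0.015 without male oil replicate 2 and 0.019 without female E2 replicate 1. Above 0 lay 20 of the 33 carriers, or 60.6%, against 46.7% of all genes.

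The precision was enough to bound most of the carriers that did not pass. For 30 of these 32, the 95% interval of the averaged difference lay within 0.5 of 0 on the log2 scale. The exceptions were Slc25a32 and Slc25a42, whose intervals ran from 0.09 to 0.57 and from -0.39 to 0.51. Over the 32, the differences lay between -0.18 and 0.33.

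**Figure D2:**
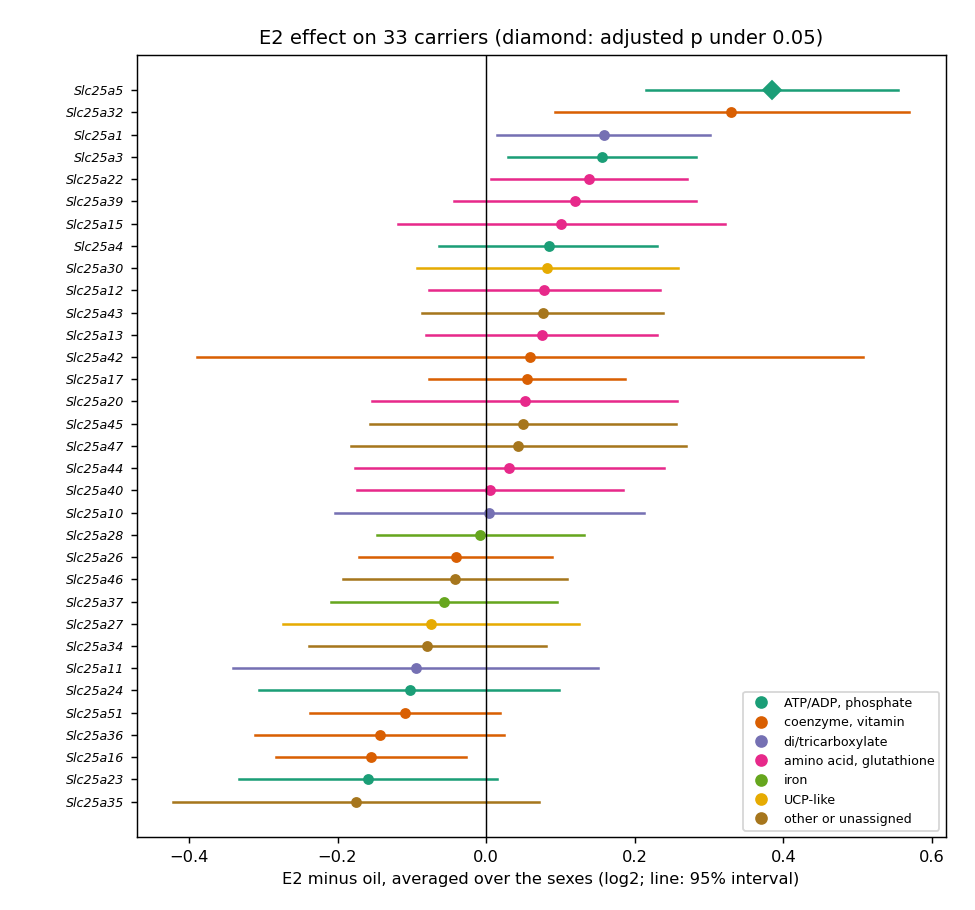
E2 minus oil averaged over the sexes for 33 carriers, in log2 units, with 95% intervals from limma, coloured by substrate group. Slc25a5, the diamond at 0.38, is the carrier that passed at an adjusted p under 0.05.

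Slc25a5 encodes the ADP/ATP translocase of dividing and many other cells. In males it read 1698, 1679 and 1825 under oil and 2342, 2544 and 2275 under E2. All 3 male E2 arrays were above all 3 male oil arrays. In females it read 2104, 1733 and 1709 under oil and 2670, 2120 and 2094 under E2. The female groups overlapped, because female oil replicate 1 was above the lowest E2 array. Group means were 1734 ± 79.4 and 2387 ± 140.2 in males and 1849 ± 221.3 and 2295 ± 325.6 in females (SD, n = 3).

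By limma the averaged difference of Slc25a5 was 0.38 ± 0.08 on the log2 scale (SE; adjusted p = 0.00899), a fold of 1.31 with a 95% interval of 1.16 to 1.47. It passed in each of 21 other settings, with an adjusted p of 0.00218 to 0.031, among them the fit without female E2 replicate 1 at 0.33. In males alone the difference was 0.46 ± 0.11 (adjusted p = 0.0654), and in females alone 0.31 ± 0.11 (adjusted p = 0.146). The female difference was 0.20 without female E2 replicate 1 (adjusted p = 0.304). The 3 probe sets that carry this symbol changed alike, by 0.38, 0.38 and 0.39. The gene has near-identical processed copies in the mouse genome, and these probe sets may not tell them apart.

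Slc25a4 is the translocase of heart and muscle and the close relative of Slc25a5. It read 1352, 1576 and 1571 under oil and 1564, 1699 and 1464 under E2 in males. The female arrays read 1652, 1519 and 1496 under oil and 1784, 1691 and 1518 under E2. The groups overlapped in both sexes, and the averaged difference was 0.08 with an interval of -0.06 to 0.23 (limma adjusted p = 0.492). The difference between the responses of Slc25a4 and Slc25a5 was not tested.

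Slc25a3 supplies the matrix with the phosphate that ATP synthase needs. It read 1397, 1464 and 1529 under oil and 1544, 1743 and 1569 under E2 in males, and 1592, 1516 and 1391 under oil and 1650, 1692 and 1705 under E2 in females. Every E2 array was above every oil array of its sex, which held for 1 of 33 carriers and for 2.32% of all genes. Male E2 and oil arrays lay apart for 8 carriers, beside 26.5% of all genes, and female arrays for 5, beside 20.1%. The averaged difference was small, 0.16 with an interval of 0.03 to 0.28, and did not pass over all genes (limma adjusted p = 0.116). Slc25a23, an ATP-Mg/phosphate carrier that is regulated by calcium, read 234.6, 234.3 and 219.7 under oil and 196.1, 189.6 and 199.5 under E2 in males, without overlap. Its female arrays read 185.3, 191.5 and 180.3 under oil and 194.8, 139.9 and 197.0 under E2, with overlap, and the averaged difference was -0.16 (adjusted p = 0.246). Slc25a24, of the same kind, read 225.2, 257.2 and 294.7 under oil and 208.5, 228.7 and 257.7 under E2 in males, and 249.2, 273.0 and 202.8 and then 220.3, 260.2 and 217.2 in females. Its groups overlapped in both sexes, with an averaged difference of -0.10 (adjusted p = 0.546).

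Promoters are shown for the 2 carriers that passed a test, Slc25a5 and the coenzyme A-related carrier Slc25a16, and for Slc25a4 as the relative that did not pass. Each is the RefSeq window of build GRCm38.p6 from 250 bases before to 50 after the gene's start, written 5′ to 3′ on the gene's strand at chrX:36795347-36795646 (plus strand), chr8:46211013-46211312 (minus strand) and chr10:62920383-62920682 (plus strand). Capitals mark matches to the GC box GGGCGG on either strand, the one among 6 motifs searched that these windows hold.
Slc25a5: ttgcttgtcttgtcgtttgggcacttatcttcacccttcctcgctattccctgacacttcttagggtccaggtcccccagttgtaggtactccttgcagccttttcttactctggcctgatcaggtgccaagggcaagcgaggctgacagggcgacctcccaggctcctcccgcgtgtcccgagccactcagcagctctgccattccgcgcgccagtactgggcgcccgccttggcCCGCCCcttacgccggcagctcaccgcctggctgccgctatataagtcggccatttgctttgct
Slc25a4: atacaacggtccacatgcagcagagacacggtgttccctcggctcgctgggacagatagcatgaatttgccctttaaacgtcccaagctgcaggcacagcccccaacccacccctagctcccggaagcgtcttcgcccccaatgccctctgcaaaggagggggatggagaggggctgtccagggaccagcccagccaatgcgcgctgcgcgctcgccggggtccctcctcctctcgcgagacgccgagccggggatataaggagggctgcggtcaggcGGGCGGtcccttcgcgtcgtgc
Slc25a16: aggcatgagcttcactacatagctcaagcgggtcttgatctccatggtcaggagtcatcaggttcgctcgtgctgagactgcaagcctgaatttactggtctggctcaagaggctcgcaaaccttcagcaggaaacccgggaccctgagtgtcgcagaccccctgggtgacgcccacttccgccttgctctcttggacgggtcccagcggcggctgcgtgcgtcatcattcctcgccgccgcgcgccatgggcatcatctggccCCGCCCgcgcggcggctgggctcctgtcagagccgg
Windows were found for 36 of the 46 carriers, 46 windows in all. The GC box lay in 38 of the 46 windows (82.6%) and in 35.66% of all 32851 promoter windows. The full estrogen response element, GGTCA and TGACC with any 3 bases between, lay in 0 carrier windows and in 0.07% of all windows. The E-box CACGTG lay in 8 carrier windows (17.4%, against 7.15% of all), of 7 carriers that included Slc25a1, Slc25a13, Slc25a15 and Slc25a36. The other motifs searched were TGACGTCA, with 2 carrier windows (4.3%, against 1.79%), CCGGAAGT, with 1 (2.2%, against 3.89%), and the NRF1 core, GCGCA and GCGC with any 1 base between, with 2 (4.3%, against 4.6%). Both strands were searched and matches could overlap; a match is a description of letters only.

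Slc25a16 is thought to carry coenzyme A or a precursor of it. It read 223.9, 202.2 and 196.5 on the female oil arrays and 145.5, 160.1 and 163.8 on the female E2 arrays, so every E2 array was lower. In males it read 167.8, 185.7 and 184.0 under oil and 193.3, 187.5 and 192.7 under E2, so every E2 array was slightly higher. The female groups were 207.5 ± 14.5 and 156.5 ± 9.7, and the male groups 179.2 ± 9.9 and 191.2 ± 3.2 (SD, n = 3). In females Slc25a16 fell by 0.41 ± 0.08 on the log2 scale by limma (SE; adjusted p = 0.0196), the 1 call among 33 carriers in females, beside 3.56% of all genes called in either direction and 2.75% called lower. That 3.56% was 1.75%, 1.28% and 1.22% without female oil replicates 1, 2 and 3, 5.51% without female E2 replicate 1 and 0.672% with the female groups alone.

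This call was narrow. It ended with an adjusted p of 0.0817 without female oil replicate 1, 0.0633 without female oil replicate 2, 0.0603 with no limit on low genes and 0.132 when the female groups were fitted alone, with differences of -0.42 to -0.35. After quantile normalization the gene lay below the limit and was not tested. In males the difference was 0.09 (adjusted p = 0.651). Its level lay between the 95th and the 99th percentile of the receptor probe sets, 144.7 and 210.3, on 11 of 12 arrays.

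Slc25a32 brings folate, and by some accounts flavin, into the matrix. In males it read 170.0, 151.4 and 196.7 under oil and 227.6, 229.7 and 214.4 under E2, without overlap. Its female arrays read 182.2, 173.7 and 179.4 under oil and 299.1, 187.8 and 181.6 under E2, so the female mean rested on replicate 1. The averaged difference was 0.33 ± 0.11 (limma adjusted p = 0.0812). It was 0.39 without female E2 replicate 3, where it passed (adjusted p = 0.0332), and 0.22 without female E2 replicate 1 (adjusted p = 0.0681). Slc25a42, which exchanges coenzyme A for adenine nucleotides, varied widely among the female E2 arrays, at 365.3, 145.0 and 417.5, against 250.7, 181.8 and 213.1 under oil. In males it read 302.0, 348.7 and 329.8 under oil and 320.0, 276.0 and 220.7 under E2. Its differences of -0.28 in males and 0.39 in females did not pass, and neither did the difference between them (0.67 ± 0.42; adjusted p = 0.954). The female difference was 0.87 without female E2 replicate 2 (adjusted p = 0.0177), 0.20 without replicate 1 (adjusted p = 0.769) and 0.11 without replicate 3 (adjusted p = 0.871), so it turned on which E2 array was left out. The other carriers of this group lay close to 0 on average, with the pyrimidine nucleotide carrier Slc25a36 at -0.14 (-0.075 without female E2 replicate 1), the NAD carrier Slc25a51 at -0.11, the S-adenosylmethionine carrier Slc25a26 at -0.04 and the peroxisomal carrier Slc25a17 at 0.06.

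**Figure D3:**
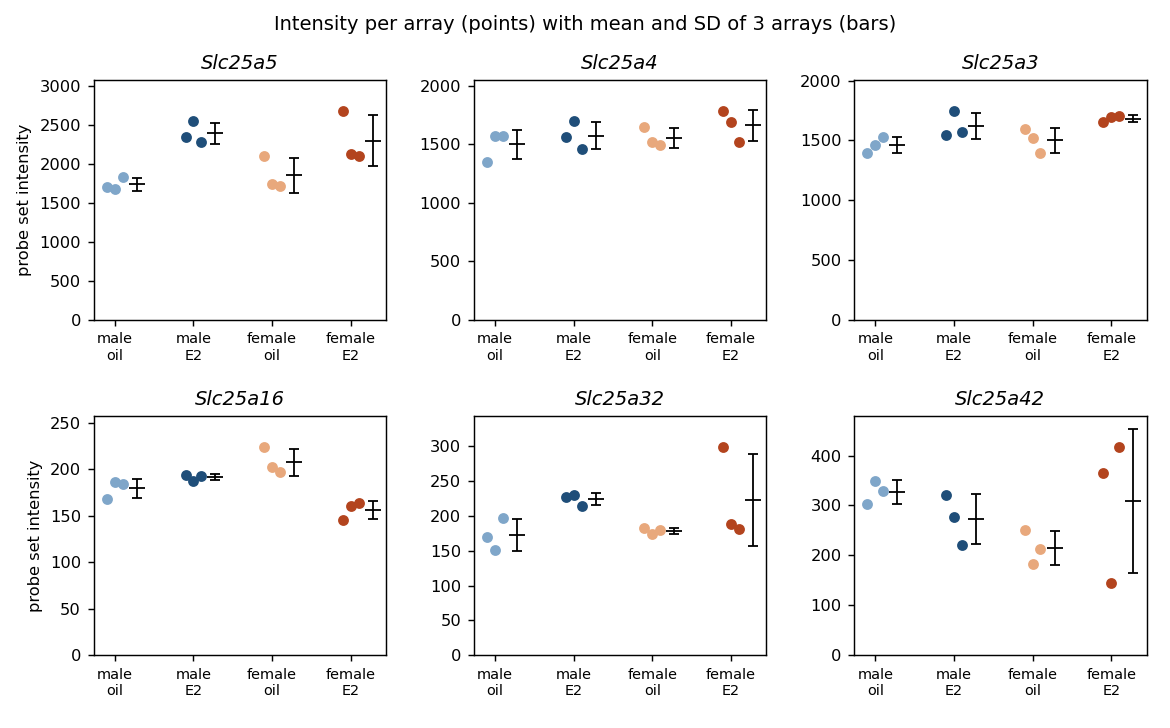
Probe set intensity of 6 carriers on each array, with the mean and SD of the 3 arrays of each group beside the points; axes start at 0. Slc25a5 is higher under E2 in males without overlap, Slc25a16 is lower under E2 in females, and Slc25a42 spreads from 145.0 to 417.5 among the female E2 arrays.

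Of the carboxylate carriers, Slc25a1, which exports the citrate used to make lipids and acetyl groups, read 734.2, 835.2 and 768.9 under oil and 986.3, 900.2 and 937.7 under E2 in males. The male groups did not overlap. The female arrays read 953.6, 800.9 and 807.9 and then 927.1, 814.3 and 893.0, with overlap, and the averaged difference was 0.16 (limma adjusted p = 0.158). Slc25a11 was at -0.095 and Slc25a10 at 0.004. All 8 carriers of amino acids, glutathione and carnitine above the limit had an averaged difference above 0, against 46.7% of all genes. They ran from 0.005 for Slc25a40 to 0.14 for the glutamate carrier Slc25a22, and 0 of 8 passed, beside 8.9% of all genes. In females alone 7 of 8 were above 0, with a median of 0.03. Slc25a39, which carries glutathione, was at 0.12 (adjusted p = 0.359).

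The mitoferrins showed no difference that passed. Slc25a37, mitoferrin 1 of red cell precursors, read 442.8, 564.2 and 476.6 under oil and 492.9, 512.8 and 471.1 under E2 in males. Its female arrays read 516.4, 470.8 and 527.1 under oil and 428.6, 478.0 and 493.0 under E2. Its averaged difference was -0.06 with an interval of -0.21 to 0.10 (limma adjusted p = 0.678). Slc25a28, mitoferrin 2 of other tissues, read 729.9, 585.8 and 618.4 under oil and 620.7, 573.0 and 641.0 under E2 in males, and 602.9, 617.4 and 589.2 and then 636.4, 645.1 and 600.1 in females. Both mitoferrins overlapped between oil and E2 in both sexes. Its averaged difference was -0.01 with an interval of -0.15 to 0.13. Of 12 genes of heme and iron-sulfur cluster synthesis above the limit, 0 passed in either direction, beside 8.9% of all genes. Their median was -0.03. The lowest was Alas1, which makes the first heme precursor, at -0.35 (adjusted p = 0.0755).

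Carriers related to uncoupling proteins, Slc25a27 and Slc25a30, were at -0.07 and 0.08. Of the carriers with other or unassigned substrates, Slc25a35 was at -0.18, and at -0.08 without male oil replicate 2 and -0.27 without male oil replicate 3. In this group Slc25a34 was at -0.08, Slc25a46, a protein of the outer membrane that acts in mitochondrial shape, at -0.04, and Slc25a43 at 0.08.

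In males alone, 0 of 33 carriers passed by limma, beside 1.43% of all genes, and 3 had an unadjusted p under 0.05, beside 14.7%, or 7.48% for higher alone. These were Slc25a1, Slc25a5 and Slc25a32, all higher. Slc25a5 passed in males under array weights (adjusted p = 0.0155), when the male groups were fitted alone (0.0146), with trend and robust estimation (0.0213), after quantile normalization (0.0496) and without female E2 replicate 1 (0.0169). In females, 2 had an unadjusted p under 0.05, beside 18.6%: Slc25a16, lower, and Slc25a5, higher. The count of calls among the carriers ranged from 0 to 2 in each sex as single arrays were left out. Without female E2 replicate 1 it was 2 in males, Slc25a5 and Slc25a32, and 2 in females, Slc25a16 and Slc25a45. It was also 2 in females without female E2 replicate 2, with Slc25a42 as the second, and 0 without female oil replicate 1 or 2.

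The responses of the sexes were compared directly. None of 33 carriers passed for the female minus the male response by limma, where 0.01% of all genes did, and 1 had an unadjusted p under 0.05, beside 5.37%. That carrier was Slc25a16, at -0.50 ± 0.12 (unadjusted p = 0.00097; adjusted p = 0.604). Between the sexes under oil, 0 of 33 passed (0.0401% of all genes), with 3 at an unadjusted p under 0.05 (4.99% of all genes). Under E2, 0 passed (0.01%), with 1 at an unadjusted p under 0.05 (9.04%). Under oil the smallest unadjusted p was that of Slc25a27, the brain uncoupling-like carrier, which read 324.7 to 370.5 on male and 233.3 to 286.1 on female arrays (-0.42; adjusted p = 0.795).

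**Figure D4:**
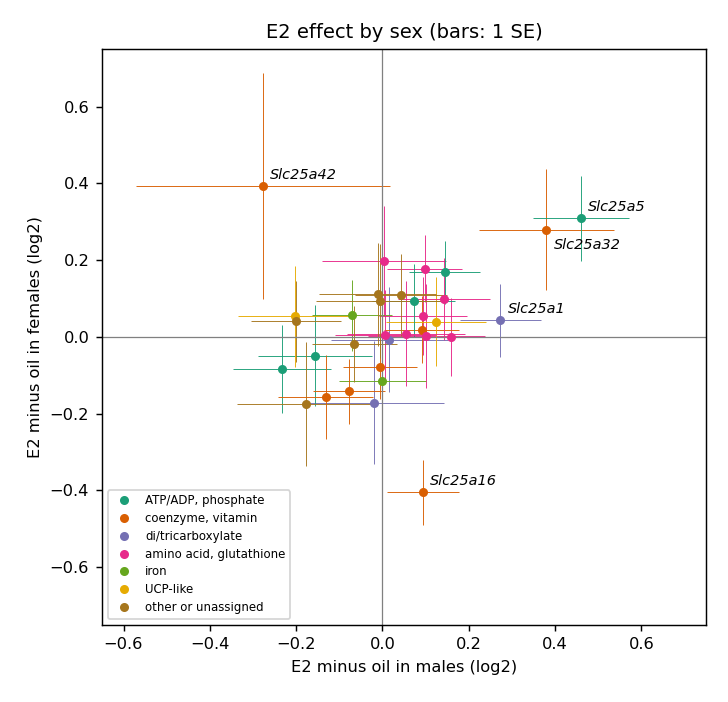
E2 minus oil in males (horizontal) and in females (vertical) for 33 carriers, in log2 units with bars of 1 SE, coloured by substrate group. Slc25a5 and Slc25a32 lie above 0 in both sexes, Slc25a16 lies at 0.09 in males and -0.41 in females, and most carriers cluster around 0.

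Carriers reach the inner membrane through the import machinery of the outer membrane (TOM) and the small TIM chaperones, and these genes were read beside them. Of 14 import genes above the limit, 2 rose on average, 0 fell and 12 did not pass, where 3.12% of all genes were called higher. Tomm70a, the receptor that recognises carrier precursors, read 576.3, 584.8 and 630.0 under oil and 724.1, 767.6 and 692.8 under E2 in males, without overlap. In females it read 606.6, 567.2 and 507.6 and then 735.4, 601.3 and 658.5, with overlap, and it rose by 0.27 on average (limma adjusted p = 0.0301). Timm9, a chaperone that escorts carriers across the space between the membranes, read 763.7, 734.1 and 699.8 under oil and 799.0, 902.8 and 836.6 under E2 in males, and 810.8, 691.7 and 728.8 and then 931.7, 986.8 and 803.4 in females, and rose by 0.25 (adjusted p = 0.0421). All 14 averaged differences were above 0, against 46.7% of all genes, with a median of 0.18 beside -0.01 for all genes. In males 14 of 14 were above 0 and in females 9 of 14. Calls of genes outside the Slc25 carriers, here and in the lists below, were not repeated under other settings or without single arrays. The carrier-like genes Mtch1 and Mtch2, which lie outside the symbol rule, were at 0.06 and 0.21 and did not pass.

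Among 15 other transporters of the mitochondrial membranes above the limit, 0 rose and 1 fell. This count is near the 8.9% of all genes called in either direction. Sfxn4, a sideroflexin, read 322.1, 283.8 and 262.4 under oil and 222.6, 176.5 and 195.0 under E2 in males, and 232.3, 247.9 and 221.7 and then 209.1, 168.8 and 223.3 in females. It fell by 0.39 on average (limma adjusted p = 0.0136), with overlap in females. The serine carrier Sfxn1 was at 0.20 (adjusted p = 0.0822). Mitochondrial one-carbon metabolism is the pathway that uses the folate Slc25a32 carries. Of 5 of its genes, Mthfd1l rose by 0.49 (limma adjusted p = 0.0334) and 4 did not pass, where 3.12% of all genes were called higher. Mthfd1l read 519.9, 404.5 and 487.1 under oil and 565.8, 682.4 and 629.2 under E2 in males. In females it read 522.8, 400.2 and 403.9 under oil and 894.4, 636.0 and 487.2 under E2, highest on female E2 replicate 1, as Slc25a32 was. The peak on that array was not particular to these genes. It also had the highest mean log2 difference from the male oil arrays for the import genes (0.3) and for 20 S phase genes (0.74).

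Genes of DNA replication are given beside Slc25a5 array by array. Of 20 S phase genes, 6 rose on average and 0 fell, where 3.12% of all genes were called higher. Relative to the male oil arrays, the mean of these genes on the log2 scale was 0.32, 0.53 and 0.41 on the male E2 arrays, where Slc25a5 read 2342, 2544 and 2275. It was 0.74, 0.15 and 0.05 on the female E2 arrays, where Slc25a5 read 2670, 2120 and 2094. On the female oil arrays it was 0.16, -0.28 and -0.07, beside 2104, 1733 and 1709, and on the male oil arrays 0.06, -0.11 and 0.05, beside 1698, 1679 and 1825. The array with the highest S phase mean, female E2 replicate 1, was also the highest for Slc25a5, and female oil replicate 1, the oil array that overlapped with E2, was the highest of the oil arrays in both. Male E2 replicate 2 was the highest of the male E2 arrays in both, at 0.53 and 2544, and the female E2 arrays ranked alike in both. Some other arrays did not keep this order. At the same S phase mean of 0.05, male oil replicate 3 read 1825 and female E2 replicate 3 read 2094. Male E2 replicate 3, at 0.41, read 2275, below the 2342 of male E2 replicate 1 at 0.32. Female oil replicate 1 also had the highest mean of all arrays for granulocyte and monocyte genes (1.09) and for erythroid genes (0.45). These means are likewise log2 differences from the male oil arrays. Female E2 replicate 1, the highest array for Slc25a5, had -0.61 and 0.05 for the same lists. Whether these genes bear on the Slc25a5 value was not tested.

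**Figure D5:**
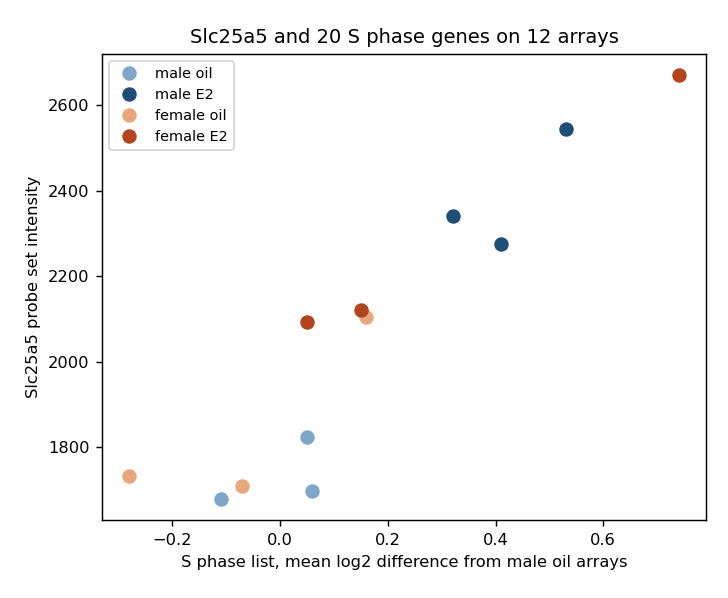
Slc25a5 intensity (vertical) against the mean log2 difference of 20 S phase genes from the male oil arrays (horizontal) on each of the 12 arrays. Female E2 replicate 1 is at the upper right, at 0.74 and 2670, and the other female E2 arrays lie at 0.15 and 0.05 with 2120 and 2094.

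Several lists of marker genes, for HSCs and for other cells, also differed between the groups beside Slc25a5. These lists do not show which cells of a sample made the RNA. The summed intensity of 7 megakaryocyte genes was 3579 to 3981 in male oil, 2828 to 3142 in male E2, 3579 to 3907 in female oil and 2147 to 3025 in female E2. Of the 6 above the limit, 4 fell and 1 rose on average. Beside these and the counts below, 8.9% of all genes were called in either direction and 3.12% were called higher. The sum of 11 lymphoid genes was 1932 to 2054, 1430 to 1489, 1840 to 2044 and 1435 to 1470 in the same order, with 2 of the 3 above the limit lower. Much of this lay in Nkg7, which read 498.1, 724.5 and 497.1 under oil and 111.8, 213.6 and 169.4 under E2 in males. Its female arrays read 663.6, 426.5 and 395.0 and then 220.3, 118.7 and 181.4. Cd79b was also lower without overlap in both sexes, while Cd3e overlapped in both, so the sum does not stand for lymphoid genes as a whole. The sum of 10 HSC markers was 13719 to 14002, 12310 to 12773, 12908 to 13280 and 11378 to 12718, with 3 of 10 lower. Kit, Procr and Cd34 were lower without overlap in both sexes, while Hlf, Hoxa9 and Tek overlapped in both. Of the 10, 3 had an averaged difference above 0, against 46.7% of all genes, so this sum does not stand for HSC markers as a whole. The sum of 10 erythroid genes overlapped between all groups, at 3194 to 3758, 3330 to 3836, 3265 to 4236 and 3555 to 4285, with 1 of the 4 above the limit higher, the transferrin receptor Tfrc. The sum of 8 genes of stroma and endothelium also overlapped, at 1317 to 1629, 1357 to 1564, 1286 to 1440 and 1253 to 1752, with 1 of the 3 above the limit higher, the collagen gene Col1a2. Of the 10 granulocyte and monocyte genes above the limit, 1 was lower, the protease gene Prtn3, a count near the share of all genes called. The part of these shifts, and of the S phase genes, in the Slc25a5 value was not tested. In such bulk samples, a change in the share of cells of a kind cannot be told apart from a change in RNA per cell.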

How the data were processed

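Biotinylated cDNA of 12 HSC samples was hybridised to Affymetrix Mouse Gene 1.0 ST arrays, the platform of the probe annotation, after labelling by the protocols in the labels. The deposited values are the authors' linear probe set intensity values; no source used here gives their summarisation, normalization, background correction or software. Of 35474 probe sets, 21780 with 1 symbol were used, and 1605 with several and 12089 with none were left out. A pseudocount of 1 was added before log2. Each of 19935 genes was read from its brightest probe set on average, and the 9967 genes with a mean above the median of genes, 7.52 on the log2 scale, were tested. All 46 carriers matched RefSeq by Entrez identifier. limma 3.58.1 in R 4.3.3 fitted 1 mean per group to all 12 arrays, followed by eBayes (degrees of freedom: 8 residual, 5.38 prior), and p-values were adjusted by Benjamini-Hochberg across the 9967 genes; a call is an adjusted p under 0.05. The steps were tested on simulated data in which 50 genes were changed by each size on the log2 scale. A change of 0.3 was called in the right direction for 34% of genes in the averaged comparison, 14% in males and 8% in females. For a change of 0.5 the shares were 84%, 60% and 54%, so small changes would often go uncalled. The simulated data gave 167 calls in the averaged comparison and 135 in females, where the real data gave 887 and 355. With fewer calls the Benjamini-Hochberg cutoff is stricter, so the shares for these comparisons may be too low. In males the calls were 145 and 143. Python 3.11.15 was used for the other steps.

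The members and gene lists were chosen with earlier results of these data known. By rule, values on every array are given for carriers called in an E2 comparison, those whose E2 and oil arrays lie apart the same way in both sexes, those of adenine nucleotides, phosphate and iron above the limit, and the members nearest the limit; of other lists, called genes and up to 4 with the smallest p may be named. P-values set a difference between groups against the spread among the arrays within groups, moderated by eBayes across genes. Values of Slc25a1, Slc25a11, Slc25a27, Slc25a36, Slc25a45, Slc25a32 and Slc25a42 were chosen after they had been seen. Alternatives were quantile normalization, median centring, a pseudocount of 16, no limit or the 25th percentile, the mean of probe sets, trend and robust eBayes, array weights, the compared groups alone, a replicate block, and each array left out.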

Additional observations from a re-analysis of the deposited data

Results flagged for a closer look

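Slc25a16 drew attention because its E2 arrays lay above all oil arrays in males and below all oil arrays in females. Such opposite separation was seen in 1 of 33 carriers and in 0.311% of all 9967 genes. The female minus male response was -0.50 on the log2 scale by limma, with an unadjusted p of 0.00097 and an adjusted p of 0.604, so the difference between the sexes did not pass over all genes.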

How the results depend on the processing

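The number of carriers called for E2 in females was 1 with all settings as described and 0 when the female groups were fitted alone, with no limit on low genes, and after quantile normalization, which left Slc25a16 below the limit. In males it was 0, and 1 under array weights, with the male groups alone, with trend and robust eBayes, and after quantile normalization. As single arrays were left out, it ran from 0 to 2 in females, 0 to 2 in males and 1 to 2 for the averaged effect, and stayed at 0 for the difference of the sexes' responses and for the sexes under oil and under E2. The averaged difference of Slc25a28, near 0, ran from -0.041 to 0.039 as single arrays were left out, and changed sign, to 0.008, 0.001, 0.015 and 0.039, without female E2 replicate 3, female oil replicate 2, male E2 replicate 2 and male oil replicate 1. Centring arrays on their medians gave a carrier median of -0.02 in females, where all genes had -0.08, and 0.04 in males, where all genes had 0.03. With the replicate number as a block, the counts were 0 in males, 1 in females and 1 on average, and no call changed (Slc25a5 adjusted p = 0.0123; Slc25a16 in females 0.0431). The labels do not say that numbers pair mice, and same-numbered oil and E2 arrays correlated at -0.18 to 0.2 in their deviations, so the block was not used. Slc25a16, Slc25a32 and Slc25a23 had means under the receptors' 99th percentile of 210.3, which limits how firmly their levels can be told from background.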

Other observations

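Some carriers had an array or group that stood apart in level without a call. Slc25a45 read 461.4, 739.0 and 685.0 on the female E2 arrays against 559.5 to 581.7 under oil in females and 530.1 to 570.5 under E2 in males. Slc25a11 read 447.6 on female E2 replicate 1 and 616.2 to 774.9 on the other 11 arrays. Slc25a36 read 685.0 on the same array and 836.0 to 1006.8 on the others. These genes were chosen after their values had been seen.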
